A study of Mus musculus with 18 samples.

Results

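Gene expression after an siRNA against transthyretin (Ttr) was compared with a phosphate-buffered saline (PBS) vehicle in cultured mouse liver cells. The libraries titled as siRNA alone, replicates 1 to 3, were set against the PBS control libraries, replicates 1 to 3, which makes 6 of the 18 libraries of the series. The tests were not limited to chosen genes: 11153 of 37991 annotated genes had enough counts to be tested, and all of these were described. The gene lists and the genes named below were chosen with earlier results of these data known. The cells were commercial plateable cryopreserved hepatocytes from male CD-1 mice, an outbred stock, and total RNA was sequenced. The siRNA group carries the label TTR-siRNA and the vehicle group the label PBS, and neither group received a REVERSIR, the oligonucleotide that the rest of the series adds to block an siRNA. Of those other libraries, only the scrambled REVERSIR and the siRNA with scrambled REVERSIR, 3 libraries each, are compared below. The rest, TTR REVERSIR without and with siRNA, enter the joint fit and the library-wide measures. Animal age, siRNA dose, the way it was delivered and the time of treatment are not given in the labels. Nothing in the labels says that replicates were separate cultures or animals, so every p-value measures the spread between these libraries, which may be technical.

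An siRNA is loaded into Argonaute in the cytoplasm, where its guide strand pairs with the target mRNA and the mRNA is cut. Guides can also pair through their seed with other mRNAs, and double-stranded RNA can set off interferon signalling, so the transcripts other than the target are part of the profile of any siRNA. Transthyretin is made by hepatocytes and carries thyroxine and, bound to retinol-binding protein, retinol in the blood.

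The 6 libraries held 3871163 to 8075490 counts. PBS replicate 3 was the smallest, and it differed from the other PBS libraries in composition. The mitochondrial ribosomal RNAs mt-Rnr1 and mt-Rnr2 took 24.3% and 24.1% of the counts of PBS replicates 1 and 2, but 5.45% of PBS replicate 3. They took 8.39%, 2.07% and 4.57% of siRNA replicates 1 to 3, and no library of the series other than PBS replicates 1 and 2 was above 9.56%. Values are therefore given both against all 3 PBS libraries and, for most genes named, against PBS replicate 3 alone. In the second fit, a single control library is assumed to vary as much as the libraries of the other groups do. PBS replicate 3 is not a better library by every measure. In a limma fit with sample quality weights it had the lowest weight of the 18 libraries, 0.49. PBS replicates 1 and 2 had weights of 0.76 and 0.95 there. Why the weight is low was not tested.

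Ttr was the gene with the smallest p-value in the comparison. It stood at 1034, 1080.3 and 1220 CPM (counts scaled to TMM-adjusted library totals) in PBS replicates 1 to 3, and at 220, 254 and 253 CPM in siRNA replicates 1 to 3. The groups were far apart, and PBS replicate 3 was the highest of the 6 libraries. The siRNA libraries kept 21.8% ± 1.72 (SD, n = 3) of the PBS mean, and 19.9% ± 1.57 (SD, n = 3) of PBS replicate 3. The log2 difference was −2.19 ± 0.094 (SE), a level 4.58-fold lower in all 3 siRNA libraries, with an adjusted p of 5.66e-14 in edgeR's quasi-likelihood test. Against PBS replicate 3 alone it was −2.32 ± 0.11 (SE), or 5.002-fold, with an adjusted p of 3.52e-12 by the same test. Over 18 settings of the processing, Ttr lay between −2.34 and −2.10 and passed the threshold each time. The exact two-sided permutation test of the CPM gave p = 0.1, the smallest that 3 libraries against 3 allow.

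**Figure D1:**
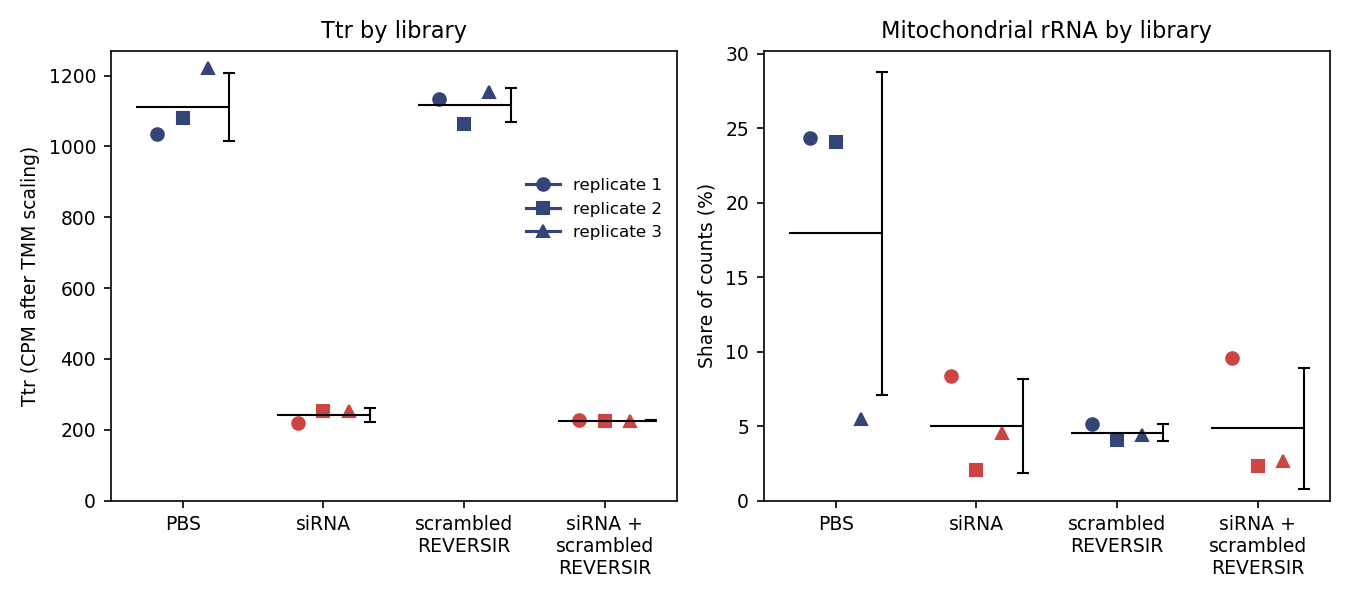
Ttr level in CPM (left) and share of counts from mitochondrial ribosomal RNA in percent (right) in 4 groups of 3 libraries. Each symbol is a library, its shape gives the replicate number, horizontal lines are group means and vertical bars are ± 1 SD. The siRNA libraries sit at 220 to 254 CPM of Ttr, and only PBS replicates 1 and 2 exceed 9.56% of mitochondrial ribosomal RNA.

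Beyond Ttr, differences were small and depended on which PBS libraries served as the control. Against all 3 PBS libraries, 292 of 11153 genes passed an adjusted p of 0.05 in edgeR's quasi-likelihood test, which is 2.62%. Of these, 113 were higher (1.01%) and 179 lower (1.6%) in the siRNA libraries, and only 15 differed by 2-fold or more (0.134%). The share called rose with abundance. It was 0.525% of the 2665 least abundant protein-coding genes and 5.67% of the 2664 most abundant. Shares of gene lists set beside that of all genes below do not allow for this. At the unadjusted p of 0.05, 2241 genes passed (20.1%). With library totals that leave out mitochondrial ribosomal RNA in place of TMM scaling, the median of all genes moved by 0.11 on the log2 scale and 602 genes passed, 537 higher and 65 lower. Without regard to the test, the CPM ranges of the groups did not overlap for 2168 genes (19.4%), of which 1061 were higher (9.51%) and 1107 lower (9.93%) in siRNA. With PBS replicate 3 as the only control, 1 gene of 11525 passed (0.00868%), and it was Ttr; an unadjusted p under 0.05 was reached by 565 genes (4.9%). With PBS replicates 1 and 2 as the controls, 1365 genes passed (12%). A fit of the 6 libraries without the other groups called Ttr alone, with 1825 genes at an unadjusted p under 0.05.

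The 291 called genes other than Ttr mostly kept their direction against PBS replicate 3, with a smaller difference. Their median absolute log2 difference was 0.41 against all PBS libraries, 0.50 against PBS replicates 1 and 2, and 0.21 against PBS replicate 3. Over all genes tested, the same medians were 0.15, 0.18 and 0.13. The sign against PBS replicate 3 was the same for 284 of the 291 genes, and 101 of them had an unadjusted p under 0.05 there, beside 547 of all 11153. PBS replicate 3 took part in choosing these genes, so these counts describe them and do not test them. PBS replicate 3 lay nearer to the siRNA mean than to the mean of PBS replicates 1 and 2 for 166 of the 291 genes, a share of 57% that is no higher than the 60.8% of all genes tested. Mitochondrial ribosomal RNA separates the same PBS libraries; with its share as a covariate Ttr was the only gene called, and 1264 genes had an unadjusted p under 0.05.

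**Figure D2:**
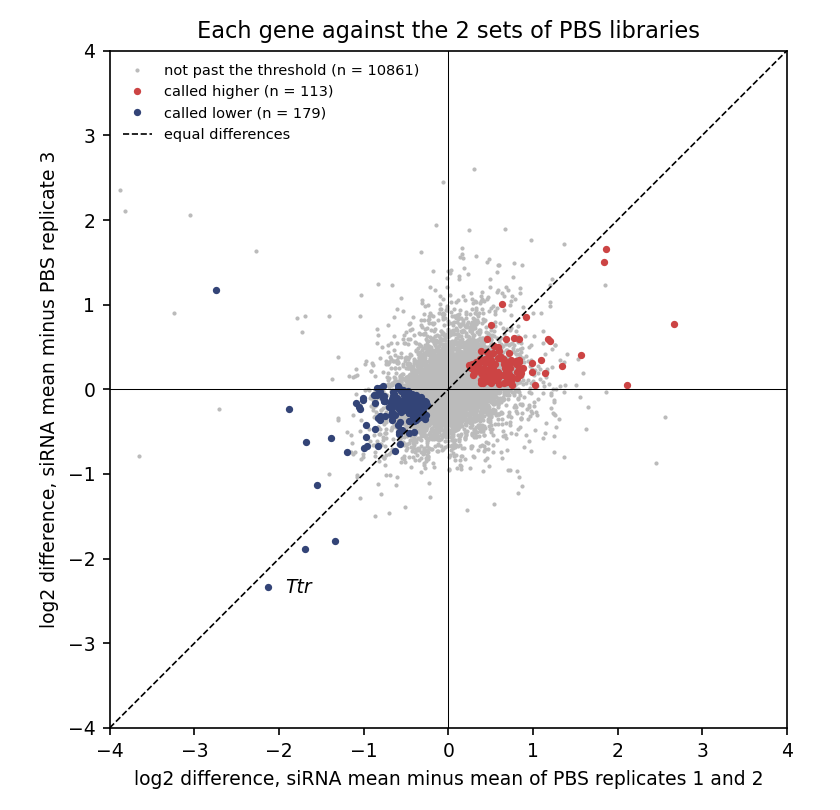
log2 difference of each tested gene between the siRNA mean and PBS replicates 1 and 2 (x axis) or PBS replicate 3 (y axis), with 1 gene outside the axes. Coloured points are the 113 genes called higher and the 179 called lower against all PBS libraries; most lie between the x axis and the dashed line of equal differences, whereas Ttr lies close to that line.

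Distances between whole profiles were also computed. Over the 8480 genes whose mean log2 CPM reached 3, the median absolute log2 difference between PBS replicate 3 and siRNA replicates 1 to 3 was 0.13, 0.14 and 0.11. Pairs of siRNA libraries differed by 0.11 each. PBS replicates 1 and 2 differed from each other by 0.13, from PBS replicate 3 by 0.17 each, and from the siRNA libraries by 0.17 to 0.21. By this measure PBS replicate 3 was closer to each siRNA library than to either library of its own group.

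The intervals of the fits bound how large an undetected change could be. With all 18 libraries, the 95% interval of the log2 difference lay within 2-fold in either direction for 98.9% of the 8480 genes, and within 1.5-fold for 85.9%. Against PBS replicate 3 alone the shares were 97.1% and 72.6%, and the median standard error was 0.16 instead of 0.11. Against that single library, a change of 1.5-fold or more could therefore not be excluded for many genes. The intervals do not set a size above which a change would have been detected.

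The 10 protein-coding genes highest against PBS replicate 3, among called genes whose groups do not overlap and whose mean log2 CPM reached 3, have different known roles. The rule fixes the separation of the groups and favours a large difference from PBS replicate 3. For these genes and the 10 lowest, both therefore describe the choice and do not test it. Trim6, a tripartite-motif ubiquitin ligase, stood at 8.13, 11.5 and 8.07 CPM in PBS and at 12.6, 14.04 and 15.2 CPM in siRNA. PBS replicate 2 came close to the lowest siRNA library. Its log2 difference was 0.61 ± 0.17 (SE, adjusted p = 0.0486, edgeR), and 0.81 against PBS replicate 3 alone. Tsfm, the mitochondrial translation elongation factor Ts, stood at 8.13, 7.43 and 11.8 CPM in PBS and at 19.3, 17.1 and 17.9 CPM in siRNA. It rose by 1.00 ± 0.21 (adjusted p = 0.0172, edgeR) on the log2 scale, and the value against PBS replicate 3 alone was 0.61. BC002230, named in the files only by its clone, stood at 4.56, 4.96 and 7.56 CPM in PBS and at 11.3, 11.2 and 11.8 CPM in siRNA. For both Tsfm and BC002230, PBS replicate 3 was the highest of the PBS libraries and the siRNA libraries were all above it. The BC002230 difference was 1.04 ± 0.20 (adjusted p = 0.0153, edgeR), and 0.61 against PBS replicate 3 alone.

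For Mpst, Pigs and 2410015M20Rik the 3 PBS libraries lay close together. Mpst, a sulfurtransferase that takes sulfur from mercaptopyruvate, stood at 8.93, 10.1 and 10.1 CPM in PBS and at 14.8, 17.3 and 14.4 CPM in siRNA. Pigs, a subunit of the transamidase that attaches GPI anchors, stood at 14.7, 16.4 and 14.1 CPM in PBS and at 22.7, 20.7 and 21.1 CPM in siRNA. 2410015M20Rik stood at 26.0, 27.5 and 27.2 CPM in PBS and at 39.9, 40.04 and 37.4 CPM in siRNA. By the rule the siRNA libraries of these 3 genes were above every PBS library, and they were so by more than the spread of the PBS group. Their log2 differences were 0.67 for Mpst, 0.50 for Pigs and 0.54 for 2410015M20Rik, against 0.61, 0.61 and 0.52 with PBS replicate 3 alone. The pro-apoptotic BH3 gene Bad rose by 0.78, 2310011J03Rik by 0.71, 2310045N01Rik by 0.58 and the G-patch gene Gpatch4 by 0.61, and their values against PBS replicate 3 alone were 0.62, 0.61, 0.54 and 0.53. None of the 10 passed the adjusted threshold in that fit, and after correction for GC content, given below, Tsfm and BC002230 passed and the other 8 did not.

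The 10 lowest genes by the same rule included the zinc finger genes Zfp511, Zfp748 and Zfp930, the BTB zinc finger factor Zbtb1, the zinc transporter Slc30a6 and mt-Nd4, which is given with the mitochondrial genes. Zfp511 stood at 11.9, 10.4 and 11.8 CPM in PBS and at 8.71, 7.40 and 5.38 CPM in siRNA. The difference was −0.72 ± 0.18 (adjusted p = 0.0391, edgeR), and −0.77 against PBS replicate 3 alone. Zbtb1 stood at 32.9, 28.2 and 31.5 CPM in PBS and at 22.3, 22.4 and 21.3 CPM in siRNA, a difference of −0.50, and of −0.52 against PBS replicate 3 alone. Uchl3, a deubiquitinating enzyme, stood at 36.3, 32.2 and 32.3 CPM in PBS and at 22.7, 21.6 and 23.7 CPM in siRNA. The siRNA libraries of Zbtb1 and Uchl3 were tightly grouped below all PBS libraries. Uchl3 fell by 0.56 ± 0.11 (adjusted p = 0.0142, edgeR), and its value against PBS replicate 3 alone was −0.49. Slc30a6 fell by 0.63, Ccdc90b by 0.55, Zfp748 by 0.54 and Btbd1 by 0.43, with −0.68, −0.50, −0.49 and −0.50 against PBS replicate 3 alone. Patl1, which links mRNA deadenylation to decapping, stood at 53.6, 49.6 and 39.1 CPM in PBS and at 29.4, 23.7 and 32.2 CPM in siRNA, so PBS replicate 3 was the PBS library nearest to the siRNA group. Patl1 fell by 0.73 ± 0.14 (adjusted p = 0.0142, edgeR), and its value against PBS replicate 3 alone was −0.44; Zfp930 fell by 0.87, with −0.54 there. After correction for GC content, Zfp511, Uchl3 and Patl1 passed and the other 7 did not.

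**Figure D3:**
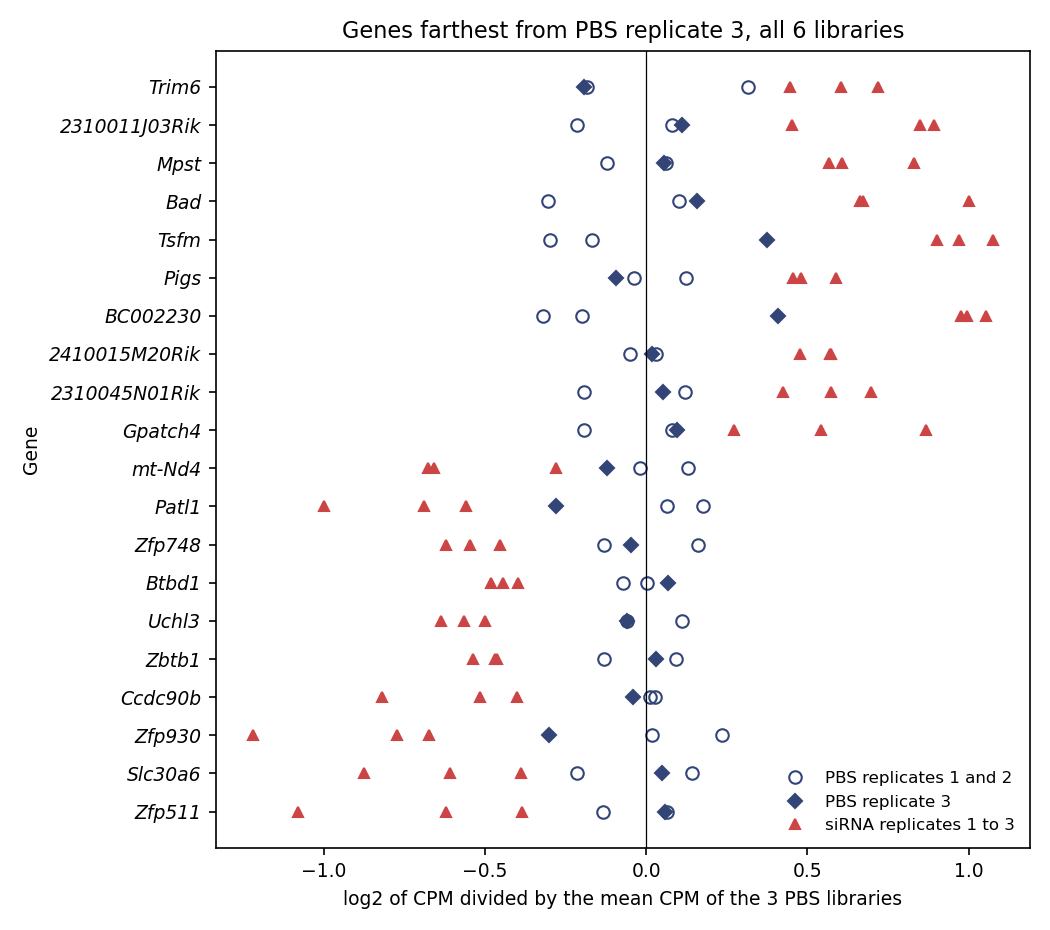
log2 of CPM over the mean of the 3 PBS libraries for the 20 genes chosen by their distance from PBS replicate 3. Open circles are PBS replicates 1 and 2, diamonds PBS replicate 3 and triangles the siRNA libraries; by the rule the siRNA libraries lie outside the PBS range in each gene, and in genes such as Tsfm, BC002230, Patl1 and Zfp930 the diamond is the PBS library nearest to them.

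Among the 8 most abundant nuclear protein-coding genes called, PBS replicate 3 sat close to the siRNA libraries in B2m, Trf, Serpina1c and Cdo1. B2m, the light chain of MHC class I, stood at 2329, 2142 and 1415 CPM in PBS and at 1290.3, 1343 and 1308 CPM in siRNA. Its difference was −0.58 ± 0.11 (adjusted p = 0.0142, edgeR) against all PBS libraries and −0.10 against PBS replicate 3 alone. Trf, the plasma iron carrier transferrin, stood at 1436, 1233 and 830.2 CPM in PBS and at 757, 793 and 817 CPM in siRNA, a difference of −0.56, and of −0.07 against PBS replicate 3 alone. Serpina1c, an alpha-1-antitrypsin gene with near-identical copies whose reads may have been shared among them, stood at 1595, 1576 and 877 CPM in PBS and at 859, 889 and 910.3 CPM in siRNA. There PBS replicate 3 lay inside the siRNA range, and the difference went from −0.61 to 0.02. The ferritin light chain gene Ftl1 rose by 0.60, from 970.7, 1098 and 1633 CPM in PBS to 1899, 1946 and 1764 CPM in siRNA, and its value against PBS replicate 3 alone was 0.20. Cyp3a11, the main drug-metabolising P450 of its subfamily, fell by 0.38, Ugp2, which makes UDP-glucose, by 0.34, the cysteine dioxygenase Cdo1 by 0.31 and Gclc, which catalyses the first step of glutathione synthesis, by 0.26. Against PBS replicate 3 alone these 4 stood at −0.14, −0.21, −0.05 and −0.16. Rhoa, Ube2e1, Gng5 and Slc25a3 fell by 0.41, 0.58, 0.58 and 0.41 against all PBS libraries but stood at 0.05, 0.04, 0.03 and 0.02 against PBS replicate 3 alone. They were chosen, like Serpina1c, for the opposite sign against PBS replicate 3, so the turn of sign is fixed by the rule. Of the 291 called genes other than Ttr, 7 had the opposite sign there.

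Genes of RNA sensing and the interferon response, the known innate answer to double-stranded RNA, were examined next. This list, like the others, was chosen with earlier results of these data known, so its counts describe the genes and are no independent test. Of 31 tested, 3 rose and none fell, which is 9.68% beside 2.62% of all genes. The median log2 difference of the list was 0.11, and 0.12 against PBS replicate 3 alone, with a median near 0 over all genes in both cases. Isg15, a ubiquitin-like protein conjugated to others after interferon, stood at 91.0, 91.9 and 93.03 CPM in PBS and at 118, 131 and 129 CPM in siRNA. Its PBS libraries, replicate 3 included, agreed within 2 CPM, and all siRNA libraries were above them. Isg15 rose by 0.46 ± 0.099 (adjusted p = 0.0207, edgeR), or 1.37-fold, and its value against PBS replicate 3 alone was 0.45 (unadjusted p = 0.00727, adjusted p = 0.961, edgeR). Adar, which edits adenosines in double-stranded RNA, stood at 80.9, 85.8 and 88.2 CPM in PBS and at 105, 103 and 109.8 CPM in siRNA. Adar rose by 0.32 ± 0.074 (adjusted p = 0.0249, edgeR), with 0.27 against PBS replicate 3 alone. Irf7, a transcription factor of type I interferon genes, stood at 156, 169 and 157 CPM in PBS and at 179, 198 and 199.7 CPM in siRNA. Irf7 rose by 0.26 ± 0.069 (adjusted p = 0.0449, edgeR), with 0.30 against PBS replicate 3 alone. None of the 3 overlapped between groups, and all 3 siRNA libraries were higher in each. The same lack of overlap held for 255 of the 291 called genes other than Ttr, and for 19.4% of all genes tested. After correction for GC content, given below, Isg15 passed and Adar and Irf7 did not.

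On the NCBIM37 build Isg15 lies at chr4:155573533-155574927 (minus strand), Adar at chr3:89518944-89557368 (plus strand) and Irf7 at chr7:148448605-148452380 (minus strand). Interferon-induced promoters often carry an interferon-stimulated response element, whose core is GAAA, any 2 bases and GAAA again. The 250 bases before the start of Isg15 are shown because this gene had the smallest p of the list and its window holds that core. The sequence is from the RefSeq promoter table on GRCm38.p6, chr4:156200819-156201068, minus strand, 5′ to 3′, and capitals mark the core matches.
Isg15: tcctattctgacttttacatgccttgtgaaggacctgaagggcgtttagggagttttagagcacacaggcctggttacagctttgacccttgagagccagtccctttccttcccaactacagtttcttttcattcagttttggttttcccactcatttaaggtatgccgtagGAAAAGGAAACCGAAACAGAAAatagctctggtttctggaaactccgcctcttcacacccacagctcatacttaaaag
The window holds 3 overlapping matches, which start at positions −78, −72 and −66 before the transcript start. The core was searched on both strands of the 250-base windows of all RefSeq promoters in the table, and 978 of 32851 windows hold it (2.98%). The windows of Irf7, Trim6 and Adar hold no match to these letters.

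Mitochondrially encoded mRNAs code for subunits of the respiratory chain. Of the 13 listed, 6 had no count in any of the 6 libraries, for a reason that was not tested. The list thus covers only part of the mitochondrial genome. Of 7 tested, 4 fell and none rose, 57.1% beside 2.62% of all genes, with a median log2 difference of −0.45. Against PBS replicate 3 alone the median was −0.30 and none passed. These mRNAs are poor in GC (35.6% in mt-Nd4, 35.7% in mt-Nd2 and 39.9% in mt-Co1), and with GC-corrected offsets the median was −0.31 and none passed; mt-Co1 stood at −0.31, mt-Nd2 at −0.33 and mt-Nd4 at −0.32 there (adjusted p = 0.0804, 0.0939 and 0.123, edgeR). mt-Co1, of cytochrome c oxidase, stood at 15393, 15185 and 10834 CPM in PBS and at 9744, 10263 and 10261 CPM in siRNA. mt-Nd4, of complex I, stood at 727.6, 807 and 678 CPM in PBS and at 467, 461 and 608 CPM in siRNA. In mt-Co1 PBS replicate 3 was close to the siRNA libraries, and in mt-Nd4 it was nearer to the other PBS libraries. The log2 difference of mt-Co1 was −0.45 ± 0.091 (adjusted p = 0.0163, edgeR), and −0.10 against PBS replicate 3 alone, and that of mt-Nd4 was −0.52 ± 0.13 (adjusted p = 0.0332, edgeR), and −0.40 there. mt-Nd2 fell by 0.54 and mt-Nd1 by 0.41, with −0.25 and −0.28 against PBS replicate 3 alone. The mitochondrial ribosomal RNAs differed by −2.83 ± 0.80 (mt-Rnr1) and −2.03 ± 0.59 (mt-Rnr2) and did not pass (adjusted p = 0.0555 and 0.0603, edgeR); against PBS replicate 3 alone they stood at −0.45 and −0.01. From PBS replicates 1 and 2 to PBS replicate 3, mt-Rnr1 differed by −2.87 and mt-Rnr2 by −2.48. Between the same libraries mt-Co1 differed by −0.50, mt-Nd2 by −0.40 and mt-Nd4 by −0.18. The median absolute difference there was 0.19 over all genes tested. Whether the ribosomal RNAs and the mRNAs share a cause was not tested. With the mitochondrial ribosomal RNA share as a covariate the median of the 7 mRNAs was −0.26 and none passed. In RNA of whole cultures, fewer cells of a type and less RNA per cell cannot be told apart. Of 74 nuclear-encoded respiratory chain subunits, 5 rose and 4 fell (12.2% beside 2.62% of all genes), with a median of 0.05, and with GC-corrected offsets 1 was higher and 4 lower. Ndufv2, of complex I, fell by 0.58 and Atp5g3, of ATP synthase, rose by 0.37, with −0.13 and 0.23 against PBS replicate 3 alone.

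Hepatocyte functions were examined next. Of 26 xenobiotic metabolism genes, 4 fell and none rose (15.4% beside 2.62% of all genes), with a list median of −0.03. With GC-corrected offsets none of the 26 passed, and Cyp3a11, Cyp2c29 and Cyp2c54 stood at −0.26, −0.22 and −0.45 (adjusted p = 0.0746, 0.120 and 0.0868, edgeR). Cyp2c29 stood at 378, 384 and 364 CPM in PBS and at 296, 331 and 289 CPM in siRNA, with all PBS libraries above all siRNA libraries. It fell by 0.30 ± 0.068 (adjusted p = 0.0237, edgeR), with −0.25 against PBS replicate 3 alone. Cyp2c54 fell by 0.55 and the bilirubin-conjugating Ugt1a1 by 0.54, with −0.30 and −0.39 against PBS replicate 3 alone. The Cyp2c genes lie in a cluster of close copies, so reads may have been shared among them. Of 25 genes of hepatocyte secreted proteins and identity, Serpina1c and the vitamin E carrier Ttpa fell and none rose (8%). Ttpa fell by 0.32, with −0.12 against PBS replicate 3 alone. In 24 acute phase genes none passed; the plasma haemoglobin scavenger Hp stood at 0.30 ± 0.089 (adjusted p = 0.0663, edgeR), with 0.17 against PBS replicate 3 alone.

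The genes that handle retinol and thyroid hormone, the cargo of transthyretin, showed 1 gene past the threshold of 19 tested (5.26% beside 2.62% of all genes). Serpina7, the thyroxine-binding globulin, stood at 178, 161 and 186 CPM in PBS and at 202, 229 and 262 CPM in siRNA. The siRNA libraries were all above the PBS libraries but spread widely. Serpina7 rose by 0.41 ± 0.11 (adjusted p = 0.0407, edgeR), with 0.33 against PBS replicate 3 alone. Rbp4, the retinol-binding partner of transthyretin, stood at −0.30 ± 0.13 (adjusted p = 0.188, edgeR) and at 0.16 against PBS replicate 3 alone, so its sign differed between the controls. The list median was 0.05, and 0.11 against PBS replicate 3 alone.

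Among cytosolic ribosomal proteins, small nucleolar RNAs and cytoskeletal genes of plated cells, list medians were near 0 against PBS replicate 3. Of 77 ribosomal protein genes, 6 rose and none fell (7.79%), with a median of 0.10 against all PBS libraries and 0.00 against PBS replicate 3. With GC-corrected offsets 1 was higher and 1 lower. Rps9 stood at 264, 271 and 427 CPM in PBS and at 494, 499.8 and 449.7 CPM in siRNA. PBS replicate 3 was much closer to the siRNA libraries than to its own group. Rps9 rose by 0.59 and Rpl27 by 0.48, with 0.18 and 0.06 against PBS replicate 3 alone. Many of these genes have processed pseudogenes that can share reads. The 35 small nucleolar RNAs tested had a median of 0.48 against all PBS libraries and 0.07 against PBS replicate 3. Of them 1, Snora68, passed (2.86%, near the 2.62% of all genes), at 1.82, with 0.78 against PBS replicate 3 alone. Since the strand of counting is not stated, reads of a small nucleolar RNA and of its host gene cannot be told apart. Of 23 actin, S100 and matrix genes 3 rose and none fell (13% beside 2.62% of all genes). These were Tagln2, S100a6 and Tmsb10, by 0.52, 0.78 and 0.44, with 0.25, 0.20 and 0.08 against PBS replicate 3 alone. S100a6, a calcium-binding protein, stood at 32.1, 26.6 and 56.7 CPM in PBS and at 64.4, 63.95 and 66.2 CPM in siRNA.

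The remaining metabolic and stress lists had 0 to 3 members past the threshold each. In 15 iron genes, 3 passed (20% beside 2.62% of all genes): Ftl1 rose, and the iron exporter Slc40a1 and the iron sensor Ireb2 fell, by 0.48 and 0.67, with −0.23 and −0.14 against PBS replicate 3 alone. In 24 ER stress genes (8.33% called) the disulfide isomerase Pdia6 rose by 0.32 and the pseudokinase Trib3 by 0.39, with 0.19 and 0.14 there. In 28 amino acid and one-carbon genes (7.14%) the alanine aminotransferase Gpt rose by 0.47 and the serine hydroxymethyltransferase Shmt1 by 0.41, with 0.31 and 0.34 there. Gpt stood at 39.7, 48.7 and 52.2 CPM in PBS and at 62.6, 69.6 and 61.2 CPM in siRNA, without overlap. In 22 p53 and apoptosis genes (9.09%) Bad rose and the p53 target cyclin gene Ccng1 fell by 0.25, with −0.17 there. In 27 oxidative stress genes (7.41%) Gclc and the haem oxygenase Hmox1 fell, the latter by 0.34, with −0.04 there. In 21 fatty acid oxidation genes (4.76%) the peroxisomal thiolase Acaa1a rose by 0.83, from 17.3, 16.4 and 28.7 CPM in PBS to 36.5, 35.5 and 37.5 CPM in siRNA, with 0.35 there. In 17 gluconeogenesis and glycogen genes (5.88%) Ugp2 was the one that passed, with a list median of −0.14, and −0.08 against PBS replicate 3. No gene passed among 21 of cholesterol and fatty acid synthesis, 14 of bile acid synthesis and transport and 11 of the cell cycle; the largest fatty acid synthesis difference by p was Me1, at −0.33 ± 0.094 (adjusted p = 0.0551, edgeR), with −0.18 against PBS replicate 3 alone. With GC-corrected offsets none of the amino acid, p53 and gluconeogenesis genes passed.

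The machinery that an siRNA uses gave no call. None of 17 RNA interference genes passed, and the smallest p belonged to the helicase Mov10, at 0.24 ± 0.090 (adjusted p = 0.137, edgeR), ahead of the nuclear exporter of miRNA precursors Xpo5, at 0.19. Against PBS replicate 3 alone they stood at 0.29 and 0.06. The list median was −0.07, and 0.05 against PBS replicate 3. The Argonaute gene Eif2c2 stood at −0.15 ± 0.12, and at −0.18 there. Of 31 decapping and deadenylation genes Patl1 fell and none rose (3.23%, near the 2.62% of all genes). Of 24 genes of the asialoglycoprotein receptor and the endolysosome, Ccdc22 was the one that passed (4.17%). It stood at 0.40, 0.68 and 0.76 CPM in PBS and at 2.84, 3.61 and 2.11 CPM in siRNA. Ccdc22 rose by 2.16 ± 0.46 (adjusted p = 0.0195, edgeR) from a few counts per library, with 1.83 against PBS replicate 3 alone. Among 263 zinc finger protein genes, 7 fell and 1 rose (3.04%), a share near that of all genes, with a median of −0.06, and with GC-corrected offsets 1 was lower and none higher.

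**Figure D4:**
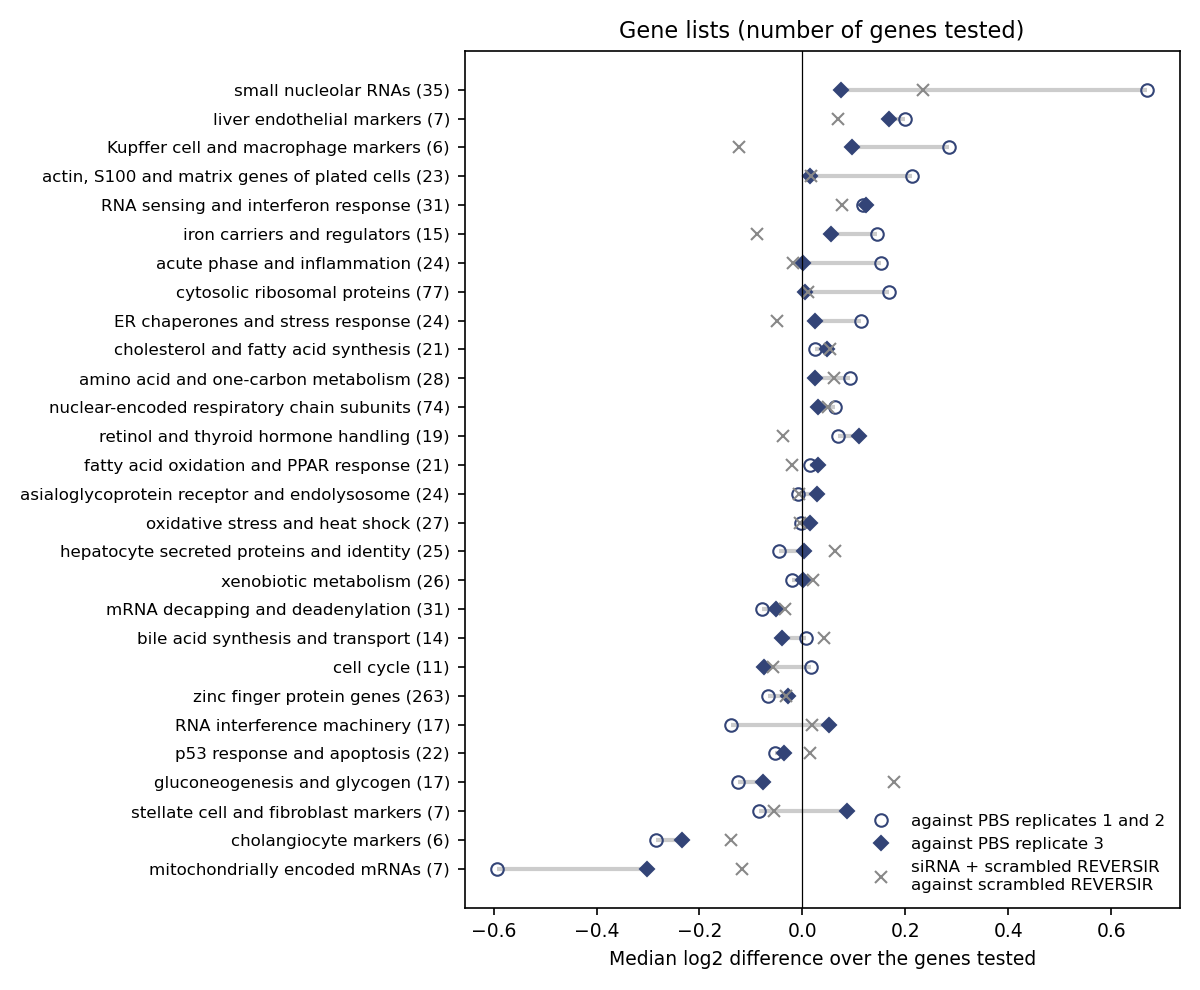
Median log2 difference of each gene list against PBS replicates 1 and 2 (circles), against PBS replicate 3 (diamonds), and in siRNA + scrambled REVERSIR against scrambled REVERSIR (crosses), with the number of genes tested. The interferon list has nearly the same median against either set of PBS libraries, whereas small nucleolar RNAs, ribosomal proteins and mitochondrially encoded mRNAs have medians nearer to 0 against PBS replicate 3.

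Markers placed the libraries with hepatocytes. The 10 hepatocyte markers summed to 47893 to 57845 CPM in PBS and to 44423 to 48757 CPM in siRNA, most of it albumin (Alb). The 12 Kupffer cell and macrophage markers summed to 392 to 453 CPM in PBS and 393 to 434 CPM in siRNA, mostly from Cd68 and Cd14, while Emr1, Marco and Ptprc stayed near 0. The 7 endothelial markers summed to 51.7 to 59.9 CPM in PBS and 53.9 to 57.6 CPM in siRNA, mostly from Stab2. The 8 stellate cell and fibroblast markers summed to 34.3 to 44.6 CPM against 29.8 to 36.1 CPM, mostly from Dcn, with Col1a1 at or near 0. The 6 cholangiocyte markers summed to 13.5 to 16.4 CPM against 12.9 to 13.6 CPM, with Cftr at 0 in all 6 libraries. The sums of all lists other than hepatocytes were a small part of the hepatocyte sum in both groups. Among the wider lists of the cell types other than hepatocytes, 1 gene passed. This was Prom1, a membrane protein of bile duct and progenitor cells, among 6 cholangiocyte genes tested (16.7% beside 2.62% of all genes). Prom1 stood at 132.5, 137 and 122 CPM in PBS and at 100.3, 109 and 95.7 CPM in siRNA. It fell by 0.37, with −0.26 against PBS replicate 3 alone. In the wider hepatocyte list Serpina1c and Ttpa fell, as given above.

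The genes called higher and lower differed in base composition. Median GC content of the longest transcript was 55.2% for genes called higher, 43.4% for genes called lower and 49.9% for all protein-coding genes tested. Among the 2665 protein-coding genes with the lowest GC content, 5 were called higher and 108 lower, and among the 2664 with the highest, 64 were higher and 5 lower. Across 10657 genes, which are not independent replicates, the Spearman correlation of the log2 difference with GC content was 0.35 against all PBS libraries and 0.26 against PBS replicate 3 alone. All these genes share the same 6 libraries. In the pair with scrambled REVERSIR it was 0.26. GC content was also correlated with each library's deviation from the mean of all 18 libraries. This gave −0.30, −0.03 and −0.08 in PBS and 0.27, 0.24 and 0.25 in siRNA. In scrambled REVERSIR it gave 0.14, −0.22 and −0.29, and with siRNA added 0.23, 0.06 and 0.10. In TTR REVERSIR, without siRNA, it gave 0.28, −0.12 and 0.12, and with siRNA added 0.05, −0.11 and 0.09. Whether the GC trend follows the siRNA was not tested. With GC-corrected offsets, an alternative added after the data were seen, 88 genes were called, 32 higher and 56 lower, and 76 of them were among the 292. After that correction the lowest-GC set held 7 higher and 12 lower genes and the highest-GC set 11 and 11. With the correction Ttr stood at −2.16, Tsfm at 0.98, BC002230 at 0.96, Patl1 at −0.70, Uchl3 at −0.43 and Isg15 at 0.40, and these 6 passed. Of the 70 called genes other than Ttr that the naming rule chose, 43 no longer passed, with none reversed. Of the 10 highest and 10 lowest genes described above, Tsfm, BC002230, Zfp511, Uchl3 and Patl1 passed and the other 15 did not, among them Trim6 at 0.67 (adjusted p = 0.0594, edgeR) and mt-Nd4 at −0.32 (adjusted p = 0.123, edgeR). Adar, at 0.26, and Irf7, at 0.17, no longer passed (adjusted p = 0.0786 and 0.187, edgeR).

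**Figure D5:**
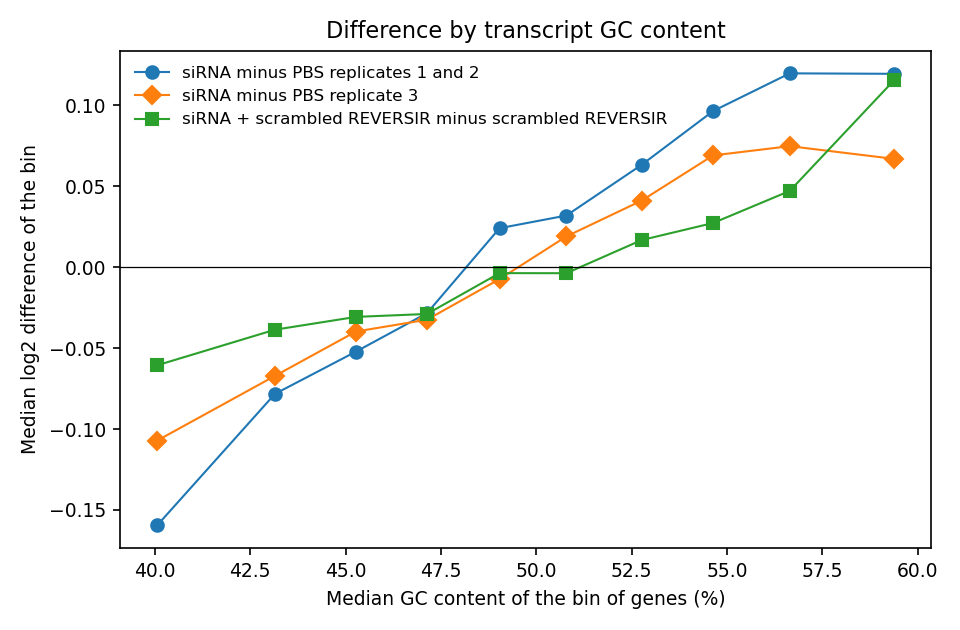
Median log2 difference over 10 equal bins of protein-coding genes ordered by GC content of the longest transcript, plotted at the median GC content (%) of each bin. Circles are siRNA against PBS replicates 1 and 2, diamonds against PBS replicate 3 and squares siRNA + scrambled REVERSIR against scrambled REVERSIR; all 3 lines run from below 0 at low GC content to above 0 at high GC content.

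The siRNA can also be read in a pair of groups that shares no library with the comparison above, siRNA + scrambled REVERSIR against scrambled REVERSIR. There 2 of 11153 genes passed (0.0179%), Ttr and Serpina7, and 694 had an unadjusted p under 0.05 (6.22%). Ttr differed by −2.30 ± 0.094 (adjusted p = 2.04e-14, edgeR). The 291 other genes called in siRNA against PBS had a median log2 difference of −0.01 in that pair, and 27 of them had an unadjusted p under 0.05. The genes called higher had a median of 0.03 and those called lower of −0.02. Isg15 stood at 0.23 ± 0.10 in that pair, Adar at 0.10, Irf7 at 0.04, Trim6 at 0.47 and Patl1 at 0.19, and none of these passed. Fbl, the methyltransferase of small nucleolar ribonucleoproteins, stood at 0.61 ± 0.12 in that pair (adjusted p = 0.143, edgeR) and at 0.18 in siRNA against PBS.

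The difference between the siRNA effects of the 2 pairs was tested directly. Ttr did not differ between them detectably, at 0.11 ± 0.13 on the log2 scale (adjusted p = 0.802, edgeR). Only 2 genes of 11153 passed, with 1267 at an unadjusted p under 0.05 (11.4%). Serpina7 stood at 0.41 without REVERSIR and at −0.61 ± 0.11 with scrambled REVERSIR, where it went from 274 ± 10.05 CPM (SD, n = 3) to 179.6 ± 23.7 CPM (SD, n = 3). The actin-binding Tagln2 stood at 0.52 and −0.16. With PBS replicate 3 as the only PBS library, no gene passed this test, and 557 had an unadjusted p under 0.05.

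In the authors' deposited table for siRNA against PBS, 5463 genes carry an adjusted p and 457 of them are under 0.05 (8.37%). Of those 457 genes of the authors' deposited table, 231 were also called here, and all 231 have the same sign. Of the genes called here, 60 have no adjusted p in the authors' deposited table. The authors' deposited table gives Ttr a log2 fold change of −1.85 and Isg15 one of 0.37. Its largest standard error is 0.110 over 18218 genes. It gives the pseudogene Gm12563 a log2 fold change of −0.13, beside −2.22 here, so its sizes are not directly comparable with those above.

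Genes with the largest folds were mostly scarce. Gm3272 stood at 0.60, 0.23 and 0.50 CPM in PBS and at 3.45, 2.28 and 1.64 CPM in siRNA, a log2 difference of 2.32, with 2.16 against PBS replicate 3 alone. The pseudogene Gm12563 stood at 16.1, 25.5 and 1.01 CPM in PBS and at 2.84, 6.64 and 0.94 CPM in siRNA. Only PBS replicates 1 and 2 were high there, and its difference of −2.22 against all PBS libraries became 1.61 against PBS replicate 3 alone. Gm10680 fell by 1.88 and the pseudogene Rps15-ps2 by 1.71, with −0.80 and −1.37 against PBS replicate 3 alone. Reads of pseudogenes can come from their parent genes, so these values are uncertain.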

How the data were processed

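Total RNA of 18 hepatocyte libraries was sequenced, and the 6 of siRNA and PBS are described here. Per the submitters' processing notes, STAR and DESeq2 were used with the mouse build NCBIM37. Versions, counting tool, strand setting and filters were not given in the sources used here. Each library has 1 table of raw counts for 37991 Ensembl genes, as deposited by the authors, with replicates kept apart. For siRNA against PBS the authors also deposited a table with the columns of a DESeq2 result: the mean size-factor-normalised signal, the log2 fold change and standard error, the Wald score, and the raw and adjusted p-value. It was used only where named. Symbols came from the NCBIM37 annotation for 37205 identifiers and from the deposited table for 49 more.

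Groups follow the sample titles. Genes were kept by filterByExpr, and all 18 libraries in 6 groups were fitted together with edgeR 4.0.16 (R 4.3.3) by quasi-likelihood F tests after TMM scaling. The group was the only term, which leaves 12 residual degrees of freedom, and Benjamini-Hochberg adjustment ran over all genes tested, with 0.05 as the threshold, in each of 3 comparisons. CPM values use the TMM-scaled totals. Standard errors come from the F statistic and the log2 difference. Alternatives used RLE scaling, library totals without mitochondrial ribosomal RNA, DESeq2 1.42.0, limma 3.58.1 with voom sample weights, no filter, the compared groups only, PBS replicate 3 alone, a covariate, a replicate block, and each library left out in turn. GC-corrected offsets were added after the data were seen. The fits were tested on simulated data. Two-sided exact permutation tests used SciPy 1.17.1.

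Counts per library limit precision: 3871163 to 8075490 in the 6 libraries, where PBS replicate 3 is the smallest. Wilson 95% intervals of the mitochondrial ribosomal shares, which cover counting error only, ran from 24.31% to 24.37% in PBS replicate 1 and from 5.42% to 5.47% in PBS replicate 3. The chi-square of counts between replicates was above sampling noise in each pair, so no library was counted as a copy of another.

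The genes described and the 29 gene lists (511 symbols, of which Hmgcs1 and Tfr2 matched no gene) were chosen with earlier results of these data known. Named were Ttr; the 10 highest and 10 lowest called protein-coding genes against PBS replicate 3 whose groups do not overlap; the 8 most abundant called nuclear protein-coding genes; 5 whose sign differs against PBS replicate 3; up to 3 called genes per list, or else up to 2 as values; the 5 smallest p in each of the other 2 comparisons; and the 3 largest folds each way. A mean log2 CPM of 3 was the minimum for the first and the opposite-sign sets. Other list members named as values were picked after their values were seen. A value that the naming rule takes is not reported here. Promoter windows are RefSeq sequence of GRCm38.p6.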

Additional observations from a re-analysis of the deposited data

Results flagged for a closer look

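The effect of the siRNA differed between the pair without REVERSIR and the pair with scrambled REVERSIR in 2 genes by edgeR's quasi-likelihood test of the difference itself. Serpina7, the thyroxine-binding globulin, had a difference of 1.02 ± 0.15 (SE, adjusted p = 0.00583) on the log2 scale, being 0.41 in siRNA against PBS and −0.61 in siRNA + scrambled REVERSIR against scrambled REVERSIR. Tagln2, an actin-binding protein, had a difference of 0.68 ± 0.12 (SE, adjusted p = 0.0325), being 0.52 and −0.16. All 3 siRNA libraries were above all 3 PBS libraries in both genes. With PBS replicate 3 as the single PBS library neither passed. Of the 4 groups, scrambled REVERSIR had the highest mean of Serpina7, at 274 CPM.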

How the results depend on the processing

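Ttr passed in each of the 18 settings, from −2.34 to −2.10; leaving out 1 library gave −2.24 to −2.12. The count of 292 genes called in siRNA against PBS was 290 with RLE scaling, 424 with DESeq2 (158 higher, 266 lower; 5838 genes had no adjusted p), 598 with limma and voom weights and 677 without a filter. It was 602 with totals that leave out mitochondrial ribosomal RNA, of which 537 were higher and 65 lower; that scaling moves the median of all genes by 0.11 on the log2 scale. It was 88 with GC-corrected offsets, and 1 (Ttr) with the compared groups only, with PBS replicate 3 as the only control with or without GC-corrected offsets, and with the mitochondrial ribosomal RNA share as a covariate. Leaving out 1 library gave 1 to 1365: 1 without PBS replicate 1, 2 without PBS replicate 2, 1365 without PBS replicate 3, and 62, 12 and 44 without siRNA replicates 1, 2 and 3. A control group of 1 library has no spread of its own, and that of the remaining groups stands in for it.

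The 2 genes of siRNA + scrambled REVERSIR against scrambled REVERSIR became 1 with totals without mitochondrial ribosomal RNA, 1 with GC-corrected offsets, 5 with the compared groups only, 41 without a filter, and 1 to 9 with 1 library left out. The 2 genes of the difference between pairs became 1 with the totals and with the compared groups only, 41 with DESeq2, 79 with limma, 214 without a filter, 4 with the covariate, 8 with GC-corrected offsets, 0 with PBS replicate 3 as the only PBS library (557 at an unadjusted p under 0.05), 0 with GC-corrected offsets added (611), and 1 to 381 with 1 library left out; 381 is the value without PBS replicate 3. Apart from the gene sets tested, which the filter and the libraries left out change, the cause of these shifts was not tested.

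Against PBS replicate 3 alone the sign turned for Serpina1c (0.022), Rhoa (0.047), Ube2e1 (0.036), Gng5 (0.032), Slc25a3 (0.022) and Gm12563 (1.61). With GC-corrected offsets as well it turned for Rhoa (0.063), Ube2e1 (0.072), Gng5 (0.13), Slc25a3 (0.027), Gm12563 (1.61), Tmsb10 (−0.0068) and Rpl27 (−0.026).

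Same-numbered PBS and siRNA libraries had correlations of their deviations of 0.13, 0.09 and 0.26, and the other pairs ran from −0.20 to 0.12. Each siRNA library correlated most with the PBS library of its own number. PBS replicate 2 correlated more with siRNA replicate 1 (0.12) than with siRNA replicate 2. Whether the numbers mark shared handling was not tested. The titles do not say that they do, so the main fit takes the libraries as unpaired. With a replicate block 248 genes were called in siRNA against PBS, 236 of them among the 292, with Ttr at −2.19; the block gave 2 genes in the pair with scrambled REVERSIR and 4 for the difference between pairs.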

Other observations

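Across the 18 settings of siRNA against PBS, Ttr passed in 18 and the genes next to it in 12: Acaa1a, Cyp2c39, Mup-ps22, Psmb8, Rab9, Rg9mtd1 and Tagln2. Those not yet described were chosen after their values were seen. The fit of the compared groups only, the covariate fit and the fit without PBS replicate 1 called Ttr alone. The fit without PBS replicate 2 called 2 genes. No gene other than Ttr could therefore pass in all settings. The settings failed include those that leave out or adjust for the PBS libraries rich in mitochondrial ribosomal RNA. Rg9mtd1, a subunit of the mitochondrial enzyme that trims the front end of tRNAs, stood at 73.2, 72.99 and 71.6 CPM in PBS and at 57.1, 53.9 and 54.2 CPM in siRNA. All 3 PBS libraries, replicate 3 included, lay close together and above the siRNA libraries. The log2 difference of Rg9mtd1 was −0.40 ± 0.068 (SE, adjusted p = 0.0108, edgeR), and −0.37 against PBS replicate 3 alone. Psmb8, the interferon-inducible immunoproteasome subunit, stood at 52.2, 55.9 and 72.1 CPM in PBS and at 86.7, 90.7 and 88.7 CPM in siRNA. The siRNA libraries were all higher, and PBS replicate 3 was the nearest PBS library. Psmb8 rose by 0.57 ± 0.092 (SE, adjusted p = 0.00728, edgeR), with 0.31 against PBS replicate 3 alone. Rab9, a GTPase of endosome-to-Golgi transport, fell by 0.58, with −0.35 against PBS replicate 3 alone. Cyp2c39 fell by 0.48 and the major urinary protein pseudogene Mup-ps22 by 1.16, with −0.27 and −0.78; both have close copies that can share reads.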
